A study of Sus scrofa with 16 samples.

Results

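The genes described here handle thyroid hormone in the liver: *IYD*, *DIO1*, *TTR*, *SERPINA7*, *THRA*, *THRB* and *THRSP*. They were chosen by symbol, and all 7 were found among the 25880 gene identifiers of each library. *IYD* was selected on its measured difference between the rapeseed oil and coconut oil pigs, and the other 6 were grouped around it by role with earlier results of the same pigs known. The levels of *IYD* in the diets and the differences of all 7 genes between groups R and C are therefore given as descriptions, without p values, and nothing is read from counts of called genes that rest on them.

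Liver RNA came from 16 crossbred pigs fattened from about 60 to 118 kg on diets of similar energy and protein content that differed in the fat added. Group R received rapeseed oil (3 gilts and 2 barrows, n = 5), group B received beef tallow (2 gilts with 3 barrows, n = 5) and group C received coconut oil (3 of each sex, n = 6). The sows were Polish Landrace crossed with Polish Large White, and the boars were Duroc crossed with Pietrain. One library of 3′ mRNA ends per pig was sequenced, with 705669 to 1767671 reads assigned to genes, and the age of the pigs was not given in the sources used here.

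The thyroid releases mostly thyroxine, which travels in blood on carrier proteins made largely by the liver. Deiodinases remove iodine from it to form the active or inactive hormone, iodotyrosine deiodinase recovers iodide from iodinated tyrosines, and nuclear receptors bind the active hormone and set the transcription of target genes, many of them in lipid metabolism.

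The libraries had the markers of liver. All 7 hepatocyte markers were counted in every diet, with a median summed level of 121848 CPM (read counts scaled to library size, with TMM normalization over all 16 pigs) on rapeseed oil, 106227 on beef tallow and 118016 on coconut oil, and *ALB* was the most abundant of them. By edgeR 0 of the 7 passed in any pair of diets, while DESeq2 called 1 in R against B, beside 186 genes in all. The groups did not overlap for 1 marker in R against B, beside 4.57% of all genes tested, and for 1 in B against C, beside 1.45%. One library stood apart: beef tallow pig 3 lay at 59.0 on the first principal component (19.3% of the variance), while the other 15 lay between −19.6 and 17.6. The same pig had the lowest summed hepatocyte markers, 64732 CPM, and the highest summed Kupffer cell (1441), stellate cell and fibroblast (715) and endothelial (373) markers of all 16, whose part in the results was not tested. The differences of members between group B and another diet, and those of genes that passed the test, are given below with and without it.

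Iodide salvage was represented by *IYD* (ENSSSCG00000004093, chromosome 1, 15756536 to 15779380, Sscrofa11.1), whose product frees iodide from iodinated tyrosines. In group R its level was 207 CPM in pig 1, 131 in pig 2, 143 in pig 3, 217 in pig 4 and 129 in pig 5. In group B it was 269 CPM in pig 1, 253 in pig 2, 150 in pig 3, 337 in pig 4 and 350 in pig 5. Group C ran from 290 CPM through a median of 348 to 481.

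All 6 coconut oil pigs lay above all 5 rapeseed oil pigs. Of the beef tallow pigs, 4 lay above every rapeseed oil pig, and pig 3 lay within the rapeseed oil range. Groups B and C overlapped, with 3 of 6 coconut oil pigs above every beef tallow pig. The means were 166 ± 43 CPM (SD, n = 5) in group R, 272 ± 79.7 (SD, n = 5) in group B and 367 ± 74.2 (SD, n = 6) in group C. The log2 difference was 0.71 ± 0.24 (SE) for B relative to R, 1.14 ± 0.19 for C relative to R and 0.44 ± 0.21 for C relative to B. These comparisons share pigs. Without beef tallow pig 3 the log2 difference was 0.86 for B relative to R and 0.29 for C relative to B.

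**Figure D1:**
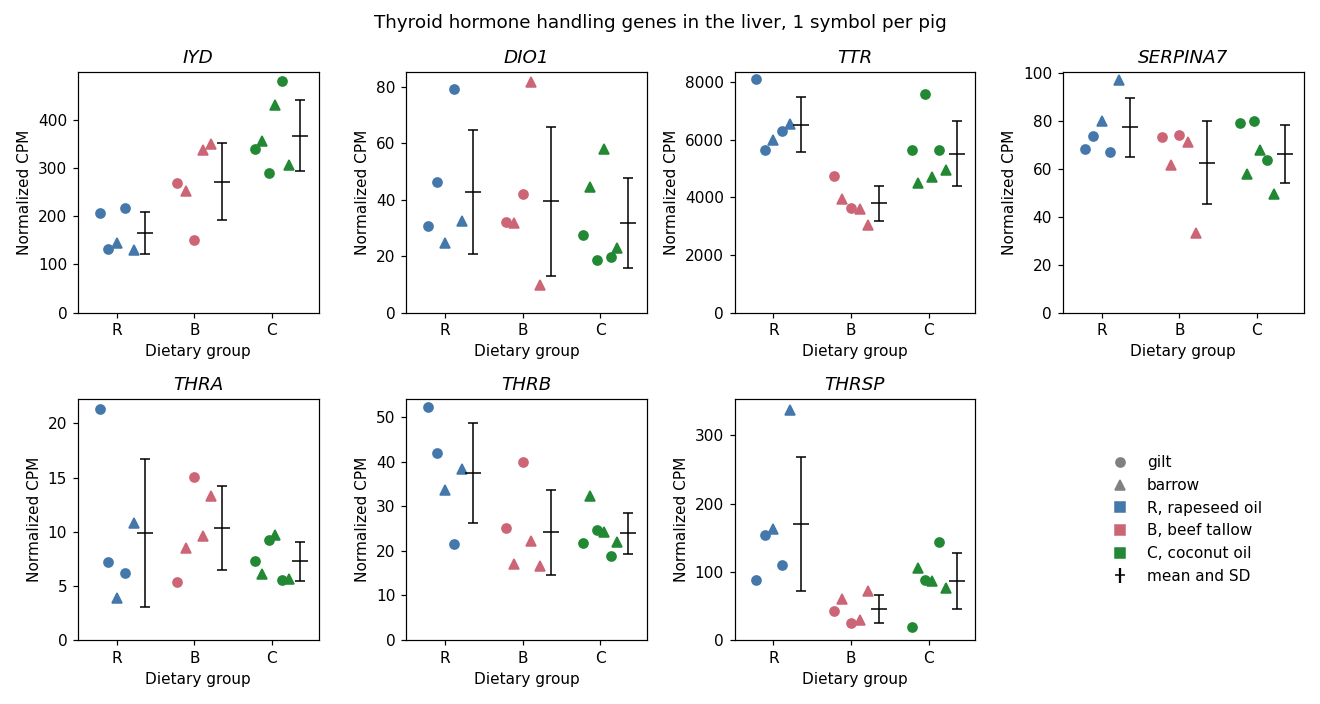
Level of each gene in each pig, in normalized CPM, for the rapeseed oil (R), beef tallow (B) and coconut oil (C) diets. Circles are gilts, triangles are barrows, and black bars are the mean and SD of a diet. The 6 coconut oil pigs lie above the 5 rapeseed oil pigs for *IYD*, and the 5 beef tallow pigs lie below the 5 rapeseed oil pigs for *TTR* and *THRSP*.

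Genes that mark the thyroid follicle were at or near 0 beside *IYD*. The 6 of 7 markers that matched had 13 reads in all 16 pigs, no marker exceeded 3 reads in a pig, and *SLC5A5* and *FOXE1* were at 0. A count of 0 here need not mean that a gene is silent, since *GPX4* and *SREBF1*, which liver uses, were also at 0 in all pigs. Their most abundant gene was *TSHR*, with 4 reads in all pigs. Their summed level ran from 0 to 2.95 CPM in group R, from 0 to 5.30 in group B and from 0 to 0.876 in group C. Of the 9 matched genes of iodide salvage and hormone synthesis, only *IYD* had enough reads to be tested.

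The share of reads with several alignments also differed among the diets, with medians of 26.5% on rapeseed oil, 22.2% on beef tallow and 19.8% on coconut oil. The lowest and highest shares were 21.9% and 32.5% on rapeseed oil, 19.3% and 33.2% on beef tallow, and 15.4% and 38.1% on coconut oil. Its part in the order of the *IYD* levels was not tested. Leaving out the pig with the largest share in each diet (rapeseed oil pig 4, coconut oil pig 3 and beef tallow pig 3, the library that stood apart), a choice made after seeing the data, gave log2 differences of 0.97 for B relative to R, 1.31 for C relative to R and 0.34 for C relative to B. An endothelial marker, *LYVE1*, also had all 6 coconut oil pigs above all 5 rapeseed oil pigs. In that pair of diets 1.46% of all genes tested did not overlap. For *LYVE1*, 4 of 5 beef tallow pigs lay above every rapeseed oil pig. *CLEC4G*, the most abundant endothelial marker, had 0 of 6 coconut oil pigs above every rapeseed oil pig, and 3 of 5 beef tallow pigs. The part of these markers in the *IYD* levels was not tested.

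Among genes with a symbol, those whose levels most resembled *IYD* over the 16 pigs were *SPTY2D1* (Pearson r = 0.842, Spearman rho = 0.768), *TMF1* (0.828 and 0.671), *TMEM263* (0.812 and 0.729), *EHMT1* (0.806 and 0.803) and *TRA2B* (0.780 and 0.709). By r they ranked 1, 2, 4, 5 and 8 among 6890 genes. After the mean of each diet was removed, r was 0.777, 0.750, 0.661, 0.652 and 0.696 in the same order. Without the 2 pigs farthest from the median of *IYD* it was 0.732, 0.716, 0.720, 0.760 and 0.775. Library depth and diet are shared by these points, and r is a description. Among the other members r ran from −0.69 for *THRB* to −0.13 for *THRA*. With the diet means removed it ran from −0.546 for *THRB* to 0.0849 for *THRSP*, and without the 2 pigs from −0.586 to 0.0394 for the same genes.

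Deiodination was represented by *DIO1* (ENSSSCG00000028896, chromosome 6, 158376744 to 158392745), the type 1 deiodinase of liver. Group R had 30.9 CPM in pig 1, 46.2 in pig 2, 24.6 in pig 3, 79.3 in pig 4 and 32.5 in pig 5. Group B had 32.1 CPM in pig 1, 31.8 in pig 2, 42 in pig 3, 81.8 in pig 4 and 9.95 in pig 5, and group C ran from 18.5 through a median of 25.3 to 58.1. The diets overlapped throughout, and the SD was 51.4%, 66.7% and 50.1% of the mean in groups R, B and C. The log2 difference was −0.11 ± 0.41 (SE) for B relative to R (edgeR adjusted p = 0.935), −0.45 ± 0.32 for C relative to R and −0.33 ± 0.40 for C relative to B (adjusted p = 0.784). Leaving out beef tallow pig 3 gave −0.14 for B relative to R (adjusted p = 0.904) and −0.31 for C relative to B (adjusted p = 0.834). For C relative to R it ran from −0.68 to −0.11 leaving out 1 pig, with −0.11 without rapeseed oil pig 4, and was −0.02 without the pig with most multi-aligned reads in each diet, a choice made after seeing the data. Each pig had 9 to 77 *DIO1* reads, and differences within the spread among pigs were not detectable with 5 or 6 pigs in a diet.

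Selenoproteins such as *DIO1* need their own translation factors, and the list of deiodination and selenoprotein genes had 9 of 12 genes matched. None passed the edgeR test at an adjusted p of 0.05: 0 of 4 tested in R against B and in R against C, and 0 of 5 in B against C. At an unadjusted p under 0.05 there was 1 gene in R against B and 0 in the other comparisons, and DESeq2 called 0 in each. Over all genes, 947 of 6318 tested were at such a p in R against B, 847 of 6528 in R against C and 780 of 6812 in B against C. In the same order 1.11%, 0.138% and 0.0587% of all genes tested passed the edgeR test at an adjusted p of 0.05. The counts of the lists below are to be read beside these. *SECISBP2*, which binds the selenocysteine insertion element, had a log2 difference of 0.53 ± 0.19 (SE) for B relative to R (adjusted p = 0.174) and −0.31 ± 0.18 for C relative to B (adjusted p = 0.529). The difference was 0.29 ± 0.26 for *TXNRD1* in B relative to R (adjusted p = 0.641), with 0.11 to 0.45 leaving out 1 pig. For *SEPSECS* it was 0.23 ± 0.19 in C relative to R (adjusted p = 0.659) and 0.25 ± 0.20 in C relative to B (adjusted p = 0.643), with 0.16 to 0.36 and 0.16 to 0.40 leaving out 1 pig.

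In plasma, transthyretin, the product of *TTR* (ENSSSCG00000023686, chromosome 6, 115496338 to 115503974), carries thyroxine and, with retinol-binding protein, vitamin A. Group R had 8108 CPM in pig 1, 5644 in pig 2, 6010 in pig 3, 6293 in pig 4 and 6562 in pig 5. Group B had 4741 CPM in pig 1, 3941 in pig 2, 3631 in pig 3, 3594 in pig 4 and 3049 in pig 5. Group C ran from 4517 CPM through a median of 5301 to 7608.

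Every beef tallow pig lay below every rapeseed oil pig, and 4 of 6 coconut oil pigs lay above every beef tallow pig. *TTR* fell by 0.78 ± 0.17 (SE) on the log2 scale in B relative to R (edgeR adjusted p = 0.0426). The gene was already among those known to differ in these pigs, so the p is not independent evidence. Without beef tallow pig 3 the log2 difference was −0.77 (adjusted p = 0.0308). The call was lost in 8 of the 10 fits that left out a single pig, all but those without beef tallow pig 1 or 3, with an adjusted p of up to 0.111, and with sex as a covariate (adjusted p = 0.0549). The log2 difference was −0.25 ± 0.17 for C relative to R and 0.54 ± 0.18 for C relative to B, where the edgeR adjusted p was 0.292 (0.53 and 0.327 without beef tallow pig 3). For C relative to R it ran from −0.36 to −0.15 leaving out 1 pig, with −0.15 without rapeseed oil pig 1. In C relative to B comparison DESeq2 gave an adjusted p of 0.0639 when genes without reads were left out and 0.0467 when they were kept, a change made after seeing the data, so whether *TTR* is called there by DESeq2 depends on that choice.

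Thyroxine-binding globulin, the product of *SERPINA7* (ENSSSCG00000012547, chromosome X, 86708624 to 86714324), is the other dedicated carrier. Group R had 68.4 CPM in pig 1, 73.9 in pig 2, 80.2 in pig 3, 67.0 in pig 4 and 97.4 in pig 5. Group B had 73.4 CPM in pig 1, 61.5 in pig 2, 74.2 in pig 3, 71.2 in pig 4 and 33.2 in pig 5, and group C ran from 49.5 through a median of 65.7 to 80.2. The 3 diets overlapped, and beef tallow pig 5 was the lowest of all pigs. The log2 difference was −0.29 ± 0.22 (SE) for B relative to R (edgeR adjusted p = 0.560), −0.24 ± 0.17 for C relative to R and 0.06 ± 0.21 for C relative to B (adjusted p = 0.933). Leaving out beef tallow pig 3 gave −0.36 for B relative to R (adjusted p = 0.417) and 0.13 for C relative to B (adjusted p = 0.868). Over all fits without 1 pig, B relative to R ran from −0.36 to −0.14 (−0.14 without beef tallow pig 5, adjusted p = 0.802) and C relative to R from −0.30 to −0.14 (−0.14 without rapeseed oil pig 5).

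All 4 genes of the plasma transport list (*TTR*, *SERPINA7*, *ALB* and *RBP4*) were tested. *TTR* alone passed, in R against B, where 1.11% of all genes tested passed. The list's median log2 difference, with the members *TTR* and *SERPINA7* included, was −0.29 there beside 0.01 over all genes tested. It was −0.11 in R against C beside −0.00111 over all genes, and 0.22 in B against C beside −0.00451. *ALB*, which encodes albumin, had a log2 difference of 0.37 ± 0.30 (SE) for C relative to B (edgeR adjusted p = 0.663), with 0.15 to 0.58 leaving out 1 pig. *TTR*, *ALB* and *SERPINA7* are also negative acute phase proteins, whose plasma levels fall in inflammation. Of 7 such genes 1 passed in R against B, again *TTR*, beside 1.11% of all genes tested. In R against C and B against C 0 passed, beside 0.138% and 0.0587%. In each of these pairs 1 gene of the 7 had an unadjusted p under 0.05, and DESeq2 called 0 of the 7. Among the others, *AHSG* had a log2 difference of −0.29 ± 0.19 for B relative to R (adjusted p = 0.497, with −0.38 to −0.19 leaving out 1 pig) and 0.35 ± 0.18 for C relative to B (adjusted p = 0.452), and *TF* −0.38 ± 0.17 for C relative to R (adjusted p = 0.368).

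Entry of hormone into cells depends on membrane transporters, and 3 of the 8 genes on that list were tested, with 0 past an adjusted p of 0.05 by edgeR in any pair of diets. At an unadjusted p under 0.05 there was 1 gene in R against B, 0 in R against C and 1 in B against C, beside 947 of 6318, 847 of 6528 and 780 of 6812 genes. *SLC16A10*, an aromatic amino acid and thyroid hormone transporter, had 12.1 ± 3.25 CPM (SD, n = 5) in group R, 28.4 ± 12.1 (SD, n = 5) in group B and 16.3 ± 7.85 (SD, n = 6) in group C. Its log2 difference was 1.22 ± 0.32 (SE) for B relative to R (edgeR adjusted p = 0.0818), 0.48 ± 0.33 for C relative to R (adjusted p = 0.580, with 0.26 to 0.62 leaving out 1 pig) and −0.75 ± 0.34 for C relative to B (adjusted p = 0.423). DESeq2 called 1 gene of the list, *SLC16A10* in B relative to R (adjusted p = 0.0363), beside 186 genes in all, and without beef tallow pig 3 edgeR gave 0.0233. The log2 difference of *SLC17A4* was 0.16 ± 0.26 for B relative to R (adjusted p = 0.825), and that of *SLC10A1* was −0.18 ± 0.35 for C relative to R (adjusted p = 0.879) and −0.19 ± 0.28 for C relative to B (adjusted p = 0.834, with −0.35 to −0.08 leaving out 1 pig).

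Conjugation and side chain breakdown clear the hormone. Of the 7 listed genes 3 matched and 2 were tested, with 0 past an adjusted p of 0.05 and 0 at an unadjusted p under 0.05 by edgeR in any pair of diets, and 0 called by DESeq2. The log2 difference of *TAT* was 0.78 ± 0.40 (SE) for B relative to R (adjusted p = 0.366), 0.54 ± 0.33 for C relative to R (adjusted p = 0.518, with 0.28 to 0.71 leaving out 1 pig) and −0.23 ± 0.44 for C relative to B (adjusted p = 0.877). For B relative to R it ran from 0.37 to 1.03 leaving out 1 pig (adjusted p of up to 0.705). Over the alternatives other than leaving out 1 pig its adjusted p was between 0.0400 and 0.516. Without the pig with most multi-aligned reads in each diet, a choice made after seeing the data, the log2 difference was 1.18 (adjusted p = 0.0400). For *SULT1E1* it was 0.28 ± 0.27 (adjusted p = 0.659), −0.16 ± 0.20 (adjusted p = 0.808) and −0.43 ± 0.28 (adjusted p = 0.571) in the same order, and leaving out 1 pig the last 2 ran from −0.29 to −0.04 and from −0.57 to −0.08.

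The receptors are encoded by *THRA* (ENSSSCG00000035969, chromosome 12, 22270506 to 22296684) and *THRB* (ENSSSCG00000036033, chromosome 13, 10900716 to 11360587), the latter being the main receptor of hepatocytes. *THRA* had 3 to 29 reads in a pig and did not pass the filter on low counts in any pair of diets, so edgeR did not test it there. Its level ran from 3.88 to 21.3 CPM in group R, from 5.35 to 15.1 in group B and from 5.50 to 9.68 in group C, with overlap in each pair. The remaining 6 members passed the filter in all 3 pairs.

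For *THRB*, group R had 52.2 CPM in pig 1, 42.1 in pig 2, 33.6 in pig 3, 21.6 in pig 4 and 38.4 in pig 5. Group B had 25.2 CPM in pig 1, 17 in pig 2, 40.0 in pig 3, 22.3 in pig 4 and 16.6 in pig 5, and group C ran from 19 through a median of 23.1 to 32.4. Rapeseed oil pigs 1 and 2 were higher than every pig of the other diets, while rapeseed oil pig 4 lay within both other ranges. In turn 3 of 5 beef tallow pigs and 5 of 6 coconut oil pigs lay within the range of group R. The log2 difference was −0.61 ± 0.28 (SE) for B relative to R (edgeR adjusted p = 0.322), −0.68 ± 0.22 for C relative to R and −0.06 ± 0.25 for C relative to B (adjusted p = 0.954). Without beef tallow pig 3 it was −0.89 for B relative to R (adjusted p = 0.0906), and for C relative to B it turned to 0.22 (adjusted p = 0.764).

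Of the 13 receptors and co-regulators 12 matched and 8 were tested, with 0 past an adjusted p of 0.05 by edgeR in any pair of diets. At an unadjusted p under 0.05 there were 2 genes in R against B, *HDAC3* apart from the members in R against C, and 0 in B against C, and DESeq2 called 0 in each. *MED1*, a Mediator subunit that binds nuclear receptors, had a log2 difference of −0.34 ± 0.15 (SE) for B relative to R (adjusted p = 0.319) and 0.31 ± 0.17 for C relative to B (adjusted p = 0.488). *HDAC3*, the deacetylase of the corepressor complex, had −0.64 ± 0.19 for C relative to R (adjusted p = 0.169), and *NCOA1*, a coactivator, 0.39 ± 0.24 for C relative to B (adjusted p = 0.561, with 0.26 to 0.54 leaving out 1 pig).

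The target *THRSP* (ENSSSCG00000033822, chromosome 9, 12479913 to 12484323) encodes a nuclear protein that accompanies fatty acid synthesis and is induced by thyroid hormone and carbohydrate. Group R had 88.3 CPM in pig 1, 154 in pig 2, 163 in pig 3, 109 in pig 4 and 337 in pig 5. Group B had 42.8 CPM in pig 1, 59.4 in pig 2, 24.3 in pig 3, 28.7 in pig 4 and 71.9 in pig 5. Group C ran from 18.6 CPM through a median of 86.9 to 144.

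Every beef tallow pig lay below every rapeseed oil pig. In group C, 5 of 6 pigs lay above every beef tallow pig, and coconut oil pig 1 lay below all of them. *THRSP* fell by 1.92 ± 0.36 (SE) on the log2 scale in B relative to R (edgeR adjusted p = 0.0260), a difference already known for these pigs and so not independent evidence. Without beef tallow pig 3 the log2 difference was −1.75 (adjusted p = 0.0233). The call was lost in 4 of the 10 fits that left out a single pig, those without rapeseed oil pig 3 or 5 or beef tallow pig 1 or 4, with an adjusted p of at most 0.0723. The log2 difference was −0.97 ± 0.37 for C relative to R and 0.96 ± 0.38 for C relative to B (adjusted p = 0.359, with 0.78 and 0.499 without beef tallow pig 3). For C relative to R it ran from −1.19 to −0.57 leaving out 1 pig, with −0.57 without rapeseed oil pig 5.

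**Figure D2:**
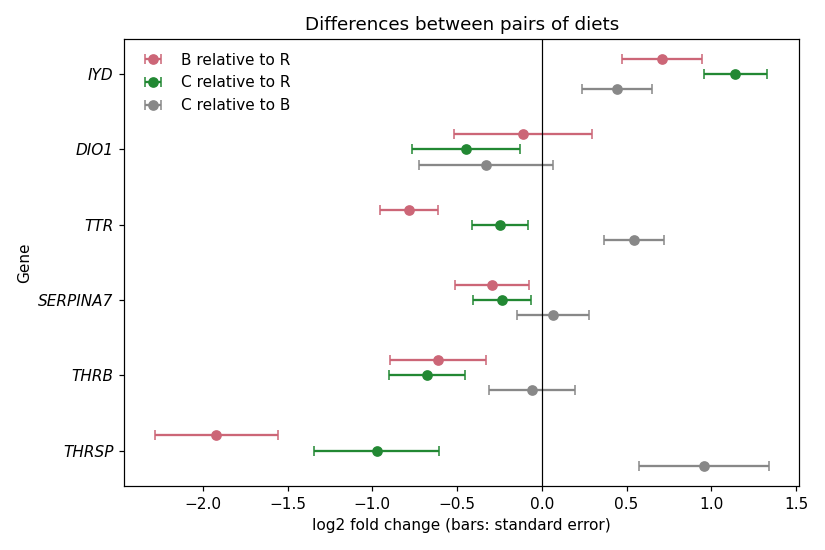
Log2 fold change of the 6 members that passed the filter on low counts, for each pair of diets, with bars for the standard error. *IYD* is above 0 in all 3 pairs, and *THRSP* and *TTR* are below 0 relative to group R and above 0 for group C relative to group B.

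In R against B, 2 of the 6 tested members passed the edgeR test, *TTR* and *THRSP*, where 1.11% of all 6318 genes tested passed. The same 2 were the members whose groups did not overlap, beside 4.57% of all genes tested. In R against C, the contrast by which *IYD* was selected, 1 of 6 passed, beside 0.138% of 6528 genes, and 1 of 6 did not overlap, beside 1.46%. Both were *IYD*, and nothing is read from them. In B against C 0 of 6 passed by edgeR, beside 0.0587% of 6812 genes, and 0 of 6 did not overlap, beside 1.45%, while *TTR* and *THRSP* had unadjusted p of 0.00742 and 0.0227. DESeq2 called 0 members there, or 1, *TTR*, with genes without reads kept. The pairs of diets share pigs, and the members were chosen with these results known.

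Among 18 matched liver genes that thyroid hormone induces, 14 were tested in R against B, where 1 rose and 2 fell, beside 1.11% of all genes. The median log2 difference was −0.16, or −0.11 without the members, beside 0.01 over all genes. *CPT1A*, which carries long-chain fatty acids into mitochondria for oxidation, rose by 1.20 ± 0.25 (SE) in B relative to R (edgeR adjusted p = 0.0305), with all 5 beef tallow pigs above all 5 rapeseed oil pigs. *CYP7A1*, the rate-limiting enzyme of bile acid synthesis, fell by 2.63 ± 0.39 in B relative to R (adjusted p = 0.00677), with all 5 beef tallow pigs below, and the third was *THRSP*. In this pair 4.57% of all genes tested did not overlap. The list was chosen with earlier results of these pigs known, so its p values in any pair of diets are not independent evidence. The call of *CPT1A* held in 2 and that of *CYP7A1* in 10 of the 10 fits that left out a single pig. Without beef tallow pig 3, *CPT1A* was at 1.19 (adjusted p = 0.0249) and *CYP7A1* at −2.42 (adjusted p = 0.00498).

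In R against C, 0 of 13 tested targets passed the edgeR test. Of the 11 that were not members 4 had an unadjusted p under 0.05, beside 847 of 6528 genes, and DESeq2 called 2, *MLXIPL* and *CPT1A*, beside 90 in all. The median log2 difference was −0.17 over the 13 and −0.06 over the 11. *MLXIPL*, the carbohydrate-responsive transcription factor, had −1.15 ± 0.24 (SE, edgeR adjusted p = 0.0644), and *CPT1A* had 0.92 ± 0.23 (adjusted p = 0.104). For *MLXIPL* all 6 coconut oil pigs lay below all 5 rapeseed oil pigs, in a pair where 1.46% of all genes tested did not overlap. By DESeq2 the adjusted p was 0.00315 for *MLXIPL* and 0.0141 for *CPT1A*. In B against C 0 of 13 passed by edgeR, 4 had an unadjusted p under 0.05, beside 780 of 6812 genes, DESeq2 called 1, beside 46 in all, and the median was −0.15. *CYP7A1* had 2.11 ± 0.46 for C relative to B (adjusted p = 0.131, or 9.79e-04 by DESeq2) and *MLXIPL* −0.75 ± 0.28 (adjusted p = 0.339).

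Of the 10 lipogenic genes that *THRSP* accompanies, 7 were tested, *THRSP* among them. By edgeR *THRSP* alone passed, in R against B, beside 1.11% of all genes tested. In R against C DESeq2 called *MLXIPL*, beside 90 genes in all. With *THRSP* included, the list's median log2 difference was −0.39 for B relative to R, −0.25 for C relative to R and 0.39 for C relative to B. Over all genes tested it was 0.01, −0.00111 and −0.00451 in the same order. *SCD*, the stearoyl-CoA desaturase, had −0.64 ± 0.26 (SE) for B relative to R (edgeR adjusted p = 0.260), with −0.79 to −0.40 leaving out 1 pig. Over all pathway lists without the members, 35 genes were tested in R against B, of which 1 rose and 1 fell by edgeR, beside 1.11% of all genes. At an unadjusted p under 0.05 there were 8, beside 947 of 6318 genes, and DESeq2 called 3, beside 186 genes in all. Of 34 in R against C and 35 in B against C, 0 passed by edgeR, with 6 and 4 at an unadjusted p under 0.05, beside 847 of 6528 and 780 of 6812 genes, and with 2 and 1 called by DESeq2, beside 90 and 46 genes in all.

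Markers of other liver cells also differed among the diets. In R against B 1.11% of all genes tested passed the edgeR test. Of 6 matched Kupffer cell markers, *CD163* rose by 0.79 ± 0.17 (SE) on the log2 scale in B relative to R (edgeR adjusted p = 0.0414), and of 3 matched endothelial markers *LYVE1* rose by 0.88 ± 0.20 (adjusted p = 0.0495). Each of these calls held in 2 of the 10 fits that left out a single pig, with an adjusted p of up to 0.104 and 0.141, and without beef tallow pig 3 the values were 0.79 (adjusted p = 0.0285) and 0.89 (adjusted p = 0.0338). In the pairs with group C edgeR called 0 markers of either list, beside 0.138% of all genes tested in R against C and 0.0587% in B against C. At an unadjusted p under 0.05 were 4 of 6 Kupffer cell markers in B against C, beside 780 of 6812 genes, and their median log2 difference was −0.55 beside −0.00451. In R against C it was 1 of 6, and 1 of 3 endothelial markers in each of the 2 pairs. DESeq2 called *LYVE1* and *C1QA* in R against C, beside 90 genes in all, and *C1QA* in B against C, beside 46. For *LYVE1* all 6 coconut oil pigs lay above all 5 rapeseed oil pigs, in a pair where 1.46% of all genes tested did not overlap. For *C1QA* all 6 coconut oil pigs lay below all 5 beef tallow pigs, in a pair where 1.45% did not overlap. The summed Kupffer cell markers, led by *C1QA*, had medians of 867, 873 and 576 CPM in groups R, B and C, with ranges of 550 to 979, 751 to 1441 and 496 to 756. The summed endothelial markers, led by *CLEC4G*, had medians of 239, 369 and 290 CPM, with ranges of 207 to 339, 321 to 373 and 274 to 364. No matched marker of either list was at 0 in all pigs. In bulk liver, fewer cells of a type and less RNA per cell cannot be told apart, and the part of these cells in the members' differences was not tested.

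Between gilts and barrows, compared over all 16 pigs with diet in the fit, 0 of 7 members passed the edgeR test, beside 0.0844% of 7110 genes. At an unadjusted p under 0.05 there was 1, *TTR*, beside 344 of 7110 genes, and DESeq2 called 0. The log2 difference of barrows relative to gilts was −0.27 ± 0.13 (SE) for *TTR* and 0.58 ± 0.30 for *THRSP* (adjusted p = 0.934 for both, the latter with 0.35 to 0.87 leaving out 1 pig), and 0.02 ± 0.18 for *IYD* (adjusted p = 0.997). The interaction of diet and sex was past an adjusted p of 0.05 for 0 genes in each pair by edgeR, with 297 of 7311, 304 of 7438 and 279 of 7736 genes at an unadjusted p under 0.05 in R against B, R against C and B against C. Each diet held only 2 or 3 pigs of a sex, so this test could have missed such differences.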

How the data were processed

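Per the labels and the study's methods, the authors used FastQC 11.8 for read quality, FLEXBAR 3.5.0 for trimming, TopHat 2.1.1 for alignment against Sus scrofa 11.1, and HTSeq-count 0.11.1 with the Ensembl 96 annotation for counting. The deposited values are whole-number counts of reads without normalization. The 5 tallies of unassigned reads per library were used only for shares of reads.

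Each pair of diets was fitted alone, without covariates, by the quasi-likelihood test of edgeR 4.0.16 (TMM, filterByExpr with a minimum count of 10 and total of 15), the first diet being the reference. Adjustment followed Benjamini and Hochberg over every gene tested, with a threshold of 0.05. The SE is the size of the log2 fold change divided by the square root of F. Alternatives were DESeq2 1.42.0, RLE normalization, other filters, all 16 pigs together, sex or replicate number as a term and leaving out each pig. Positions are those of RefSeq on the same assembly.

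The members and lists were chosen with earlier results of these data known. Besides the members, genes were named if they belonged to a list and passed the threshold, had one of the 2 smallest p of a pathway list in a pair of diets, were the most abundant of a marker list, or were the 5 genes with a symbol most like *IYD*. A planned search of promoters for a receptor motif was not run.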

Additional observations from a re-analysis of the deposited data

Results flagged for a closer look

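*TTR* in coconut oil pig 3 was 7608 CPM, far above the other 5 coconut oil pigs for the spread of that diet. It was 1 of 21 sets of pigs (7 genes in 3 diets) examined in this way, and chance alone marks about 1 in 20. The same pig had the fewest reads on genes, 705669, and the largest share of reads with several alignments, 38.1%, whose part in the value was not tested.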

How the results depend on the processing

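Of 503 member values under the alternatives 486 kept their direction. In R against B the fits called 70 genes, 186 by DESeq2, 188 by DESeq2 with genes without reads kept, 190 without a filter, 35 with the replicate block, 214 without the pig with most multi-aligned reads in each diet and 9 to 149 leaving out 1 pig (149 without beef tallow pig 3). In R against C the 9 became 90, 93, 82, 14 with 10 reads in every pig, 40 without the multi-aligned pigs and 3 to 27 leaving out 1 pig, and in B against C the 4 became 46, 53, 22, 8 with all 16 pigs together and 4 to 9. Keeping genes without reads and leaving out the multi-aligned pigs were chosen after seeing the data, the former with the study's published counts in view. Between the sexes the 6 became 11 by DESeq2 in either form, 41 without a filter and 0 with 10 reads in every pig, and 6 to 8 leaving out 1 pig.

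Members called in R against B numbered 2, but 1 without a filter, with sex as a covariate or with the replicate block, 4 without the multi-aligned pigs and 0 to 3 leaving out 1 pig, the 4 and the 3 with *IYD*, from which nothing is read. In B against C they numbered 0, but 1 by DESeq2 with genes without reads kept. *TTR* in B relative to R was past the threshold in 6 of the 9 alternatives other than leaving out 1 pig. Its log2 difference was −0.79 without a filter, −0.75 with sex and −0.79 with the replicate block (adjusted p = 0.0507, 0.0549 and 0.0801), and −0.87 to −0.69 leaving out 1 pig. *THRSP* passed in 9 of 9, with −2.14 to −1.51 leaving out 1 pig. *THRB* in B relative to R was −1.04 without the multi-aligned pigs (adjusted p = 0.0284). Its adjusted p was between 0.0284 and 0.378 over the alternatives other than leaving out 1 pig, and up to 0.559 leaving out 1 pig. *TTR* in C relative to B was 0.54 by DESeq2 with genes without reads kept, with adjusted p between 0.0467 and 0.599 over its alternatives. Where fewer pigs or genes entered, that is part of the change; otherwise the cause was not tested.

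Directions turned only for values that failed the test. *DIO1* in B relative to R was 0.20 without the multi-aligned pigs and −0.53 to 0.23 leaving out 1 pig (0.23 without rapeseed oil pig 4, 0.12 without beef tallow pig 5), and in C relative to B −0.56 to 0.087. *SERPINA7* in C relative to B ran from −0.092 to 0.14. *THRB* in C relative to B was 0.054 with the replicate block, 0.21 without the multi-aligned pigs and −0.16 to 0.22 leaving out 1 pig. Without the multi-aligned pigs *SLC17A4* was −0.11 (B relative to R), *SLC10A1* 0.29 (C relative to R) and *ALB* −0.021 (C relative to B). Leaving out 1 pig, *SLC17A4* ran from −0.089 to 0.29, *SULT1E1* from −0.069 to 0.39 (both B relative to R), *SLC10A1* from −0.36 to 0.26 (C relative to R) and *TAT* from −0.50 to 0.18 (C relative to B), and between the sexes *IYD* ran from −0.11 to 0.11 and *DIO1* from −0.14 to 0.28.

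Same-numbered pigs of 2 diets had correlations from −0.25 to 0.14 in their deviations from the diet means. Some pigs, but not all, correlated best with their own number, in R and C pigs 1, 2 and 3. Such correlations cannot settle whether the numbers pair the pigs. With the replicate block 8 genes were called in R against C and 4 in B against C. The covariate and block fits kept the filter of the diet pair. Depth limits *THRA*, which failed the filter on low counts with 3 to 29 reads in a pig, while *DIO1* had 9 to 77 and *THRB* 15 to 71.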

Other observations

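The summed markers of other cell types were low or overlapped among the diets. The 5 adipocyte markers, led by *CFD*, had median summed levels of 69.0 CPM on rapeseed oil, 61.9 on beef tallow and 82.1 on coconut oil, and *LEP* was at 0. Stellate cell and fibroblast markers, led by *COL3A1*, had medians of 396, 423 and 384 CPM, and DESeq2 called 1 of the 5 in R against B, a gene that the edgeR filter left out. Red blood cell markers, led by *HBB*, had 1355, 2069 and 2747 CPM. Cholangiocyte markers, led by *SOX9*, and lymphocyte markers, led by *NKG7*, had 125 and 230 reads in all 16 pigs. The 4 pancreas markers had 4 reads in all pigs, with *CPB1* and *INS* at 0 and *CPA1* the most abundant.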
